A study of Mus musculus with 22 samples.

Results

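The genes described here are 9 costimulatory and inhibitory receptors of T cells, Cd28, Icos, Ctla4, Pdcd1, Lag3, Tigit, Tnfrsf4, Tnfrsf18 and Cd27, together with the ligand gene Cd40lg. They were chosen by name, 10 of the 55291 gene names in the RNA-seq tables, and all 10 passed the filter on low values, which kept 28325 names. A T cell that meets antigen needs a further signal besides its antigen receptor, which comes from CD28 and ICOS or from receptors of the tumour necrosis factor (TNF) receptor family such as OX40 (Tnfrsf4), GITR (Tnfrsf18) and CD27. CTLA-4, PD-1 (Pdcd1), LAG-3 and TIGIT restrain the response. The CD40 ligand works outwards, since T helper cells use it to activate B cells and dendritic cells.

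The series compared memory CD4+ T cells of the Th2 type, helper cells that make type 2 cytokines, by where they were recovered and by the population they came from. Its RNA-seq samples are 8 libraries in 4 groups of 2: ex-TRM and ex-Tcirc cells, each from tissue and from the circulation. TRM abbreviates tissue-resident memory, and Tcirc is the name the labels give to the other memory population. Another 14 ATAC-seq samples were not analysed here. In all groups the cells descend from effector Th2 cells with a transgenic T cell receptor for ovalbumin (donor lines OT-II creERT2 or DO11.10), so they do not stand for a natural repertoire. Recipients had been sensitized with ovalbumin and were either BALB/c-nu/nu mice, which lack a thymus, or C57BL/6 mice of the Ly5.2 type. Tamoxifen to induce recombination and a second ovalbumin challenge are described, with sorting on CD69 and congenic markers at day 49 or day 71. Each RNA sample is labelled as CD4+ T cells of lung, from females aged 6 to 10 weeks with host strain Balb/c, although the protocol takes circulating ex-TRM cells from blood. Which donor line, experiment or day a given RNA library belongs to is not in its labels, so group and experiment cannot be told apart. Nor do the labels tell if replicates are separate animals, so that p-values reflect spread among these libraries only, possibly technical in nature.

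Each value is an FPKM, which counts fragments relative to gene length and to all mapped fragments. Circulating ex-TRM replicate 1 listed 917 gene names above 0, none of the 10 genes among them, and was treated as missing, which left 7 libraries and 1 circulating ex-TRM library. The 4 tissue libraries listed 30488 to 37894 names above 0 and circulating ex-TRM replicate 2 listed 29688, whereas the circulating ex-Tcirc pair listed 12785 and 7042. All 9 genes of T cell identity were above 0 in tissue and in circulating ex-TRM, while Cd3d was at 0 in both libraries of the circulating ex-Tcirc pair and Lck, Zap70 and Cd5 in its replicate 2. Among 6 Th2 genes, the lineage factor Gata3 was above 0 in all 7 libraries, with 49.4 and 231 FPKM in the circulating ex-Tcirc pair and 186 in circulating ex-TRM. Il1rl1 and Ccr8 were at 0 in that pair and read 34.5 and 4.59 FPKM in circulating ex-TRM, and the cytokine genes Il4, Il5 and Il13 were at 0 in all 3 circulating libraries. In bulk RNA, fewer cells of a type and less RNA per cell cannot be told apart.

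A value of 0 was common in circulating ex-Tcirc even for genes that were high in tissue. Of 530 protein-coding genes with a mean of 50 to 200 FPKM over the 4 tissue libraries, circulating ex-Tcirc listed 5.66% at 0 in replicate 1 and 42.1% in replicate 2, against none in each of the other 5 libraries. Of 1389 genes at 20 to 50 FPKM these shares were 22.8% and 60.5%, and of 2145 genes at 10 to 20 FPKM they were 46.3% and 73.7%. Fragment numbers could not be recovered from the low FPKM values, so depth is unknown. Of the 10 genes, 2 were at 0 in replicate 1 of circulating ex-Tcirc and 6 in replicate 2, and such a value is given as listed at 0, not as absence.

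**Figure D1:**
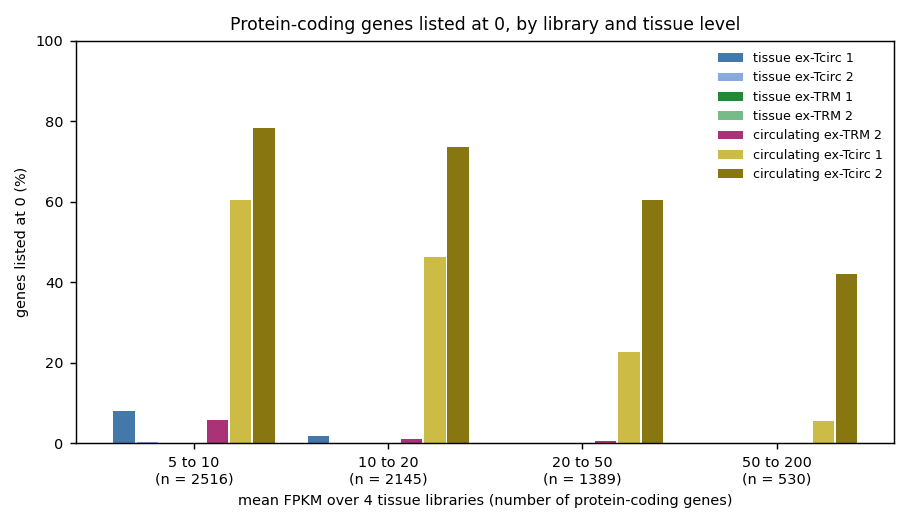
Share of protein-coding genes listed at 0 (y axis, percent) in each of 7 libraries (colours), for 4 ranges of the mean FPKM over the 4 tissue libraries (x axis, with the number of genes). Among genes at 50 to 200 FPKM in tissue, circulating ex-Tcirc listed 5.66% at 0 in replicate 1 and 42.1% in replicate 2, against none in the other 5 libraries.

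By position in GRCm38.p6, the RefSeq assembly that corresponds to build mm10, several of the genes are neighbours. Cd28 (chr1:60746388-60773359), Ctla4 (chr1:60909025-60915832) and Icos (chr1:60960773-61000322) follow one another with no other protein-coding gene between them. Tnfrsf4 (chr4:156013595-156016613) and Tnfrsf18 (chr4:156026322-156028894) are 9.71 kb apart, also without a coding gene between. Pdcd1 lies at chr1:94038305-94052553, Lag3 at chr6:124904359-124912434 next to Cd4, Cd27 at chr6:125232620-125237136, Tigit at chr16:43626137-43665125 and Cd40lg at chrX:57212143-57224042. In the annotation Tnfrsf4 overlaps Sdf4, Tigit overlaps Zbtb20 and Tnfrsf18 overlaps the long non-coding RNA Gm16008. Cd27 overlaps the long non-coding RNA E130112N10Rik and the microRNA gene Mir8113, and Tigit also overlaps the microRNA gene Mir568. The strand setting of the counting is not stated, so reads may have been shared between these overlapping genes.

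The RefSeq promoter table held 6 of the 10 genes. The 250 bases before the table's start site are shown for 3 of them, Tnfrsf4 and Tnfrsf18 because they are neighbours with unlike values in circulation, and Ctla4 because it is the inhibitory gene between Cd28 and Icos. All 3 are on the plus strand of GRCm38.p6, at chr1:60908775-60909024 for Ctla4, chr4:156013445-156013694 for Tnfrsf4 and chr4:156026072-156026321 for Tnfrsf18. The window of Tnfrsf4 runs past the first base of the gene's bounds given above, since the table uses a start site inside them. Capitals mark GGAAA, the core of sites for NFAT, a factor activated by the antigen receptor, on either strand.
Ctla4: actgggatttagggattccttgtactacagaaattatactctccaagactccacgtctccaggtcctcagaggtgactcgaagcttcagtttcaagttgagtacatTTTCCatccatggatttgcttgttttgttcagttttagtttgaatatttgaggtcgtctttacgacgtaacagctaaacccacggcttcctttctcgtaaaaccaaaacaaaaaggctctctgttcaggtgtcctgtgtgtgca
Tnfrsf4: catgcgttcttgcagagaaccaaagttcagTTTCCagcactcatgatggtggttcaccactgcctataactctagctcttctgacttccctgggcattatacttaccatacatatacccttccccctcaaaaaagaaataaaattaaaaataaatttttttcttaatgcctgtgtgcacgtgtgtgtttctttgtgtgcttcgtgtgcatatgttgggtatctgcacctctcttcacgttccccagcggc
Tnfrsf18: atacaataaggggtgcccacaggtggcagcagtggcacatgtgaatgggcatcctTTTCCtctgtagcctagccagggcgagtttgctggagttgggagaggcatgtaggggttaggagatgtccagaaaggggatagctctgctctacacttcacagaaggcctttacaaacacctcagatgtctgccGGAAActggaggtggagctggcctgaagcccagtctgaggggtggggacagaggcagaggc
Tnfrsf18 held 2 matches and the other two 1 each, with no overlap between matches. Of 32851 windows of this length, 55.6% held at least 1 match to GGAAA. The AP-1 motif, TGANTCA, was held by 6.75% of windows and was not found in these 3 on either strand.

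In tissue, Cd40lg was the highest of the 10 genes per length, with a level of 98.3 ± 28.2 FPKM (SD, n = 4 libraries), followed by Tnfrsf18 at 76.1 ± 29.1 and Cd28 at 59.1 ± 22.9. Tnfrsf4 stood at 41.7 ± 4.79 FPKM, Icos at 30.4 ± 9.6, Ctla4 at 29.4 ± 9.38 and Pdcd1 at 25.6 ± 4.08. Tigit was at 18.6 ± 10.6 and Cd27 at 18.1 ± 4.06 FPKM, and Lag3 was lowest at 1.16 ± 1.41. Neighbours in this order overlapped between libraries except for Cd27 and Lag3. Cd28, Icos, Ctla4 and Tnfrsf4 were above 0 in all 7 libraries, and the other 6 were at 0 in at least 1.

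**Figure D2:**
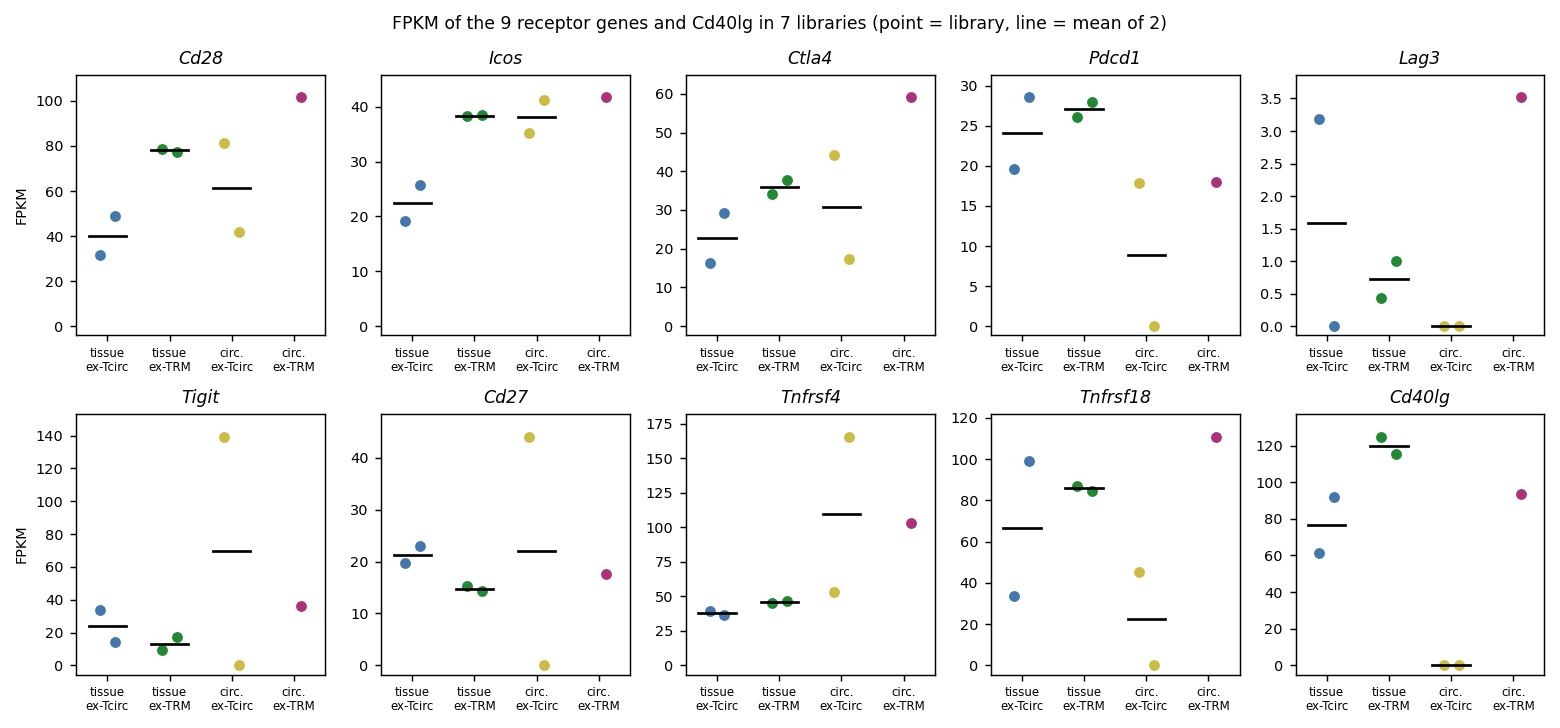
FPKM (y axis, from 0, scale differs between panels) of the 10 genes in the 4 groups (x axis), with 1 point per library and a line at the mean of groups of 2. In tissue ex-TRM the points of Icos, Cd28 and Ctla4 lie above both points of tissue ex-Tcirc, and both circulating ex-Tcirc points of Cd40lg lie at 0.

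Cd28 encodes the main costimulatory receptor, which binds CD80 and CD86. In tissue, the ex-Tcirc pair (replicates 1 and 2) read 31.7 and 48.8 FPKM and the ex-TRM pair 78.7 and 77.3. In the circulation, the ex-Tcirc pair read 81.2 and 41.9 FPKM and the single ex-TRM library 102. Cd28 was thus low in both tissue ex-Tcirc libraries and in replicate 2 of circulating ex-Tcirc, and higher in the other 4. Icos, which sustains helper responses, read 19.1 and 25.7 FPKM in the tissue ex-Tcirc pair and 38.3 and 38.5 in the ex-TRM pair. Its circulating values were 35.1 and 41.2 FPKM for ex-Tcirc and 41.7 for ex-TRM. Both tissue ex-Tcirc libraries lay below the other 5.

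Ctla4 encodes the inhibitory receptor that competes with CD28 for its ligands. It read 16.4 and 29.3 FPKM in the tissue ex-Tcirc pair, 34.2 and 37.9 in the tissue ex-TRM pair, 44.3 and 17.3 in the circulating ex-Tcirc pair and 59.1 in circulating ex-TRM, the highest of the 7. Over the 7 libraries its pattern was close to that of Cd28 (Pearson r = 0.96 of log2(FPKM + 1), a description, since libraries share depth and groups).

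Pdcd1, the gene of the inhibitory receptor PD-1, read 19.7 and 28.6 FPKM in the tissue ex-Tcirc pair and 26.2 and 28 in the tissue ex-TRM pair. The circulating ex-Tcirc pair read 17.8 and 0 FPKM and circulating ex-TRM 18. Every circulating value lay below every tissue value, by little for 2 of the 3. Lag3, an inhibitory receptor for class II molecules, read 3.18 and 0 FPKM in the tissue ex-Tcirc pair, 0.438 and 1.004 in the tissue ex-TRM pair, 3.52 in circulating ex-TRM and 0 in both circulating ex-Tcirc libraries. Near 0 no order between groups can be read.

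Tigit, an inhibitory receptor for PVR, read 33.6 and 14.1 FPKM in the tissue ex-Tcirc pair and 9.16 and 17.5 in the tissue ex-TRM pair. The circulating ex-Tcirc pair read 139 and 0 FPKM and circulating ex-TRM 36.1. Both the highest and the lowest value came from circulating ex-Tcirc, so this group gives no single level. Zbtb20, which Tigit overlaps, read 16.3 and 2.53 FPKM in that pair.

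Tnfrsf4 encodes OX40, which prolongs the survival of activated helper cells. It read 39.1 and 36.3 FPKM in the tissue ex-Tcirc pair, 45 and 46.4 in the tissue ex-TRM pair, 53.4 and 166 in the circulating ex-Tcirc pair and 103 in circulating ex-TRM. All 3 circulating libraries lay above all 4 tissue libraries. The overlapping gene Sdf4 read 32.7 and 0 FPKM in the circulating ex-Tcirc pair, 65.4 in circulating ex-TRM and 39.9 to 64.9 in tissue, which is another order.

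Tnfrsf18, the gene of the costimulatory receptor GITR, read 33.6 and 99.2 FPKM in the tissue ex-Tcirc pair and 86.9 and 84.8 in the tissue ex-TRM pair. The circulating ex-Tcirc pair read 45.2 and 0 FPKM and circulating ex-TRM 111, so the range of the circulating libraries enclosed that of tissue. Cd27, a receptor of naive and memory T cells, read 19.7 and 23 FPKM in the tissue ex-Tcirc pair, 15.3 and 14.3 in the tissue ex-TRM pair, 44 and 0 in the circulating ex-Tcirc pair and 17.5 in circulating ex-TRM. As for Tigit, its highest and lowest values were the 2 of circulating ex-Tcirc.

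Cd40lg read 61.6 and 91.7 FPKM in the tissue ex-Tcirc pair, 125 and 115 in the tissue ex-TRM pair and 93.4 in circulating ex-TRM, and each circulating ex-Tcirc library listed it at 0. In the 5 libraries where it was above 0 it held the percentiles 98.5 to 99.2 among the protein-coding genes. Of the 530 genes at 50 to 200 FPKM in tissue, 29 (5.47%), Cd40lg among them, were at 0 in each library of the circulating ex-Tcirc pair, and all 29 were above 0 in circulating ex-TRM replicate 2.

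Ranks within a library do not depend on how its values were scaled. They do depend on zeros, which rank lowest among the 21401 protein-coding names. The circulating ex-Tcirc pair listed 6001 and 3173 of these above 0, against 13142 to 16854 in the other libraries analysed. Any gene above 0 in that pair therefore ranks high, which limits comparison of percentiles between libraries. Cd28 held the percentiles 96.1 to 98.7 in the 7 libraries, Icos 91.7 to 97.2 and Ctla4 89.7 to 97.3, the latter 2 lowest in tissue ex-Tcirc replicate 1. Tnfrsf4 held 95.8 to 97.1 in tissue. In circulation it held 97 and 99.5 in the ex-Tcirc pair and 98.7 in ex-TRM, so by rank the first of these fell within the range of tissue.

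**Figure D3:**
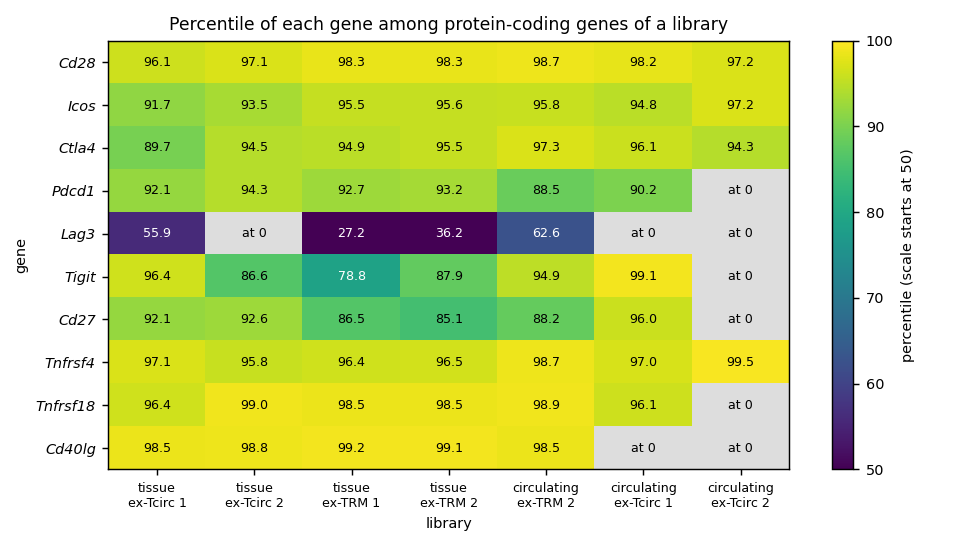
Percentile of each of the 10 genes (rows) among the protein-coding genes of each of 7 libraries (columns), on a colour scale that starts at 50, with grey where the gene was listed at 0. Cd28 lies at 96.1 to 98.7 in all 7 libraries, and Cd40lg is grey in both circulating ex-Tcirc libraries.

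The first comparison asked whether these genes differ between tissue and circulation, averaged over both origins. Cd40lg was higher in tissue by 3.30 ± 0.28 on the log2 scale (SE; limma adjusted p = 0.0231). It was the 1 gene of 10 called, where limma called 12.8% of all genes tested, 12.5% as higher in tissue. At an unadjusted p under 0.05 it was again 1 of 10, against 26.9% of all genes. Its circulating ex-TRM value lay within the range of tissue, and both zeros of circulating ex-Tcirc are identical and so add no spread to the test. Without tissue ex-TRM replicate 1 or 2 the difference of Cd40lg was 3.28 and 3.33. Each such fit leaves 1 library in either ex-TRM group, and no gene was called in it, Cd40lg included.

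Tnfrsf4 averaged 2.58 times as much in the 3 circulating libraries as in the 4 tissue libraries. Its log2 difference, tissue minus circulating, was -1.23 ± 0.48 (SE; limma adjusted p = 0.198) and was not called. Without replicate 1 of circulating ex-Tcirc the difference was -1.63, and without replicate 2 it was -0.83. Each such fit leaves 1 library in either circulating group, so that its spread comes from the tissue libraries alone. On FPKM as deposited, Tnfrsf4 was the only one of the 10 to lie lower in tissue without overlap, as 2.33% of all genes tested did. Rescaled to the sum of protein-coding genes, Icos did so as well, at 121 to 202 in tissue and 208 to 409 in circulation. The share over all genes was not computed on that scale. Pdcd1 was the only one to lie higher without overlap, as 12.1% did.

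For Icos, Ctla4 and Cd28 the same differences were -0.44 ± 0.26, -0.51 ± 0.47 and -0.47 ± 0.37 (SE; limma adjusted p = 0.394, 0.586 and 0.527). Among the 10 log2 differences 4 were positive, with a median of -0.22, and 75.5% of all genes tested were positive, with a median of 0.55. The share over all genes depends on genes with zeros, since over the 5304 genes above 0 in all 7 libraries 38.7% were positive, with a median of -0.15, and 0 of the 4 of the 10 genes tested there. Both medians also moved under rescaling. With values rescaled to the sum of protein-coding genes they were 0.23, with 6 of 10 positive, and 1.14, and as TPM they were -0.29 and 0.42. The protein-coding rescaling also enlarged the values while pseudocount and filter stayed the same, and 36978 genes were tested. A pseudocount of 0.1 without rescaling gave 0.33, with 6 of 10 positive, and 1.46. Scaling between libraries and a relatively smaller pseudocount therefore cannot be told apart in that shift.

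Within ex-Tcirc cells, Cd40lg was again the 1 gene of 10 called, by 6.25 ± 0.35 on the log2 scale (SE; limma adjusted p = 0.00568), where 21.1% of all genes were called and 20.7% were called higher in tissue. At an unadjusted p under 0.05 it was 1 of 10, against 36.1% of all genes. As the circulating pair is at 0, the value depends on the pseudocount and is not a fold. Icos had -0.75 ± 0.33 and Tnfrsf4 -1.30 ± 0.61 (SE; limma adjusted p = 0.188 and 0.212). Both were higher in each circulating library than in each tissue library, as 4.32% of all genes were, and Pdcd1 and Cd40lg were lower in each, as 46.8% were. With 1 library left in the circulating group, 7 of the 10 genes and 33.9% of all genes were called without replicate 1, and 3 of the 10 and 18.5% without replicate 2.

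Within ex-TRM cells, where the circulation is 1 library, limma called 0 of the 10 and 0 of all genes (0%). At an unadjusted p under 0.05 stood 0 of the 10 and 8.76% of all genes. The circulating library lay above both tissue libraries for Icos, Ctla4, Cd28, Lag3, Tigit, Tnfrsf4, Tnfrsf18 and Cd27, 8 of 10, and below both for Pdcd1 and Cd40lg. Over all genes 49.9% lay above both and 34.6% below both. Tnfrsf4 had -1.16 ± 0.75 (SE; limma adjusted p = 0.848). When only these 3 libraries were fitted, 3 of the 10 genes were called, Tnfrsf4 among them (limma adjusted p = 0.0178), as were 4246 of 23327 genes (18.2%), with the spread resting on the tissue pair.

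Whether the location difference depended on origin was tested as an interaction, ex-TRM minus ex-Tcirc. Cd40lg was the 1 gene of 10 called, with -5.89 ± 0.56 (SE; limma adjusted p = 0.0427). Of the 28325 genes tested 7.41% were called, 1919 as negative like Cd40lg and 180 (0.635%) as positive. At an unadjusted p under 0.05 Cd40lg was again the 1 of 10, against 26% of all genes.

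**Figure D4:**
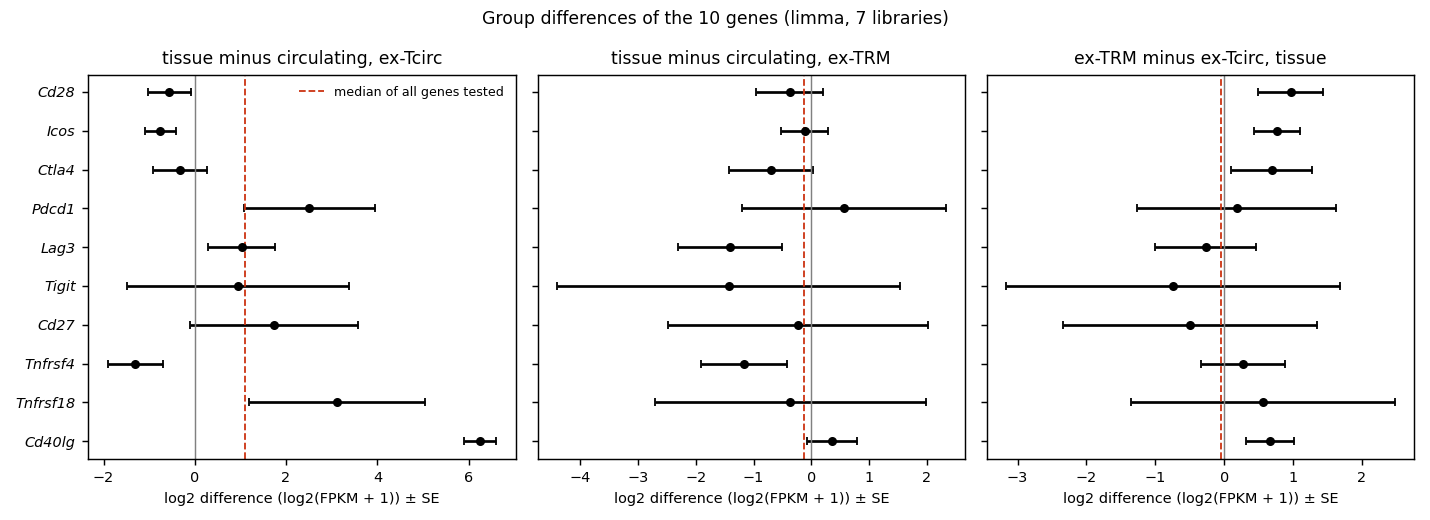
Log2 differences (x axis, on log2(FPKM + 1), with SE from limma over 7 libraries) of the 10 genes (y axis) for tissue minus circulating in ex-Tcirc, the same in ex-TRM, and ex-TRM minus ex-Tcirc in tissue, with a dashed line at the median of all genes tested. Cd40lg lies at 6.25 in the first panel and at 0.36 in the next, and Cd28, Icos, Ctla4 and Cd40lg lie between 0.67 and 0.97 in the last.

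The last comparison was between origins within tissue, whose 4 libraries held few zeros. Cd28 averaged 78 ± 1.04 FPKM in ex-TRM and 40.2 ± 12.1 in ex-Tcirc (SD, n = 2 each), a ratio of 1.94. Icos averaged 38.4 ± 0.117 and 22.4 ± 4.61 FPKM, a ratio of 1.71, and Ctla4 36 ± 2.57 and 22.8 ± 9.12, a ratio of 1.58. Cd40lg averaged 120.0 ± 6.81 and 76.7 ± 21.3 FPKM, a ratio of 1.57. These 4 genes and Tnfrsf4, with a ratio of 1.21, were higher in each ex-TRM library than in each ex-Tcirc library, 5 of 10 where 21.8% of all genes were. Cd27, with a ratio of 0.69, was the 1 gene lower without overlap, as 10.5% of all genes were.

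None of these differences was called. In the fit of 7 libraries, whose spread includes the circulating ex-Tcirc pair, they were 0.97 ± 0.47 for Cd28, 0.77 ± 0.33 for Icos, 0.69 ± 0.59 for Ctla4 and 0.67 ± 0.35 for Cd40lg on the log2 scale (SE; limma adjusted p = 1 for each). limma called 0 of all genes (0%). An unadjusted p under 0.05 was reached by 1398 (4.94%), 0 of the 10 among them. With the 4 tissue libraries fitted alone, the differences were 0.97 ± 0.23 for Cd28, 0.77 ± 0.19 for Icos and 0.67 ± 0.22 for Cd40lg (SE; limma adjusted p = 0.35, 0.381 and 0.724). In that fit these 3 genes and Cd27, 4 of the 10, had an unadjusted p under 0.05, as did 5.81% of 24906 genes, and 0 genes were called.

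The summed level of the 9 genes of T cell identity was 1323 and 1662 FPKM in the tissue ex-Tcirc pair and 1840 and 1831 in the ex-TRM pair, although Cd3d was lower in ex-TRM and Cd3e and Cd3g overlapped between the pairs. With values rescaled to that sum, chosen after the data were seen, the log2 differences were 0.67 for Cd28, 0.47 for Icos, 0.39 for Ctla4 and 0.36 for Cd40lg. That of Tnfrsf4 turned from 0.27 to -0.03. Some markers of other cells were highest in tissue ex-Tcirc replicate 1, where 7 B cell markers summed to 395 FPKM, against 20.7 to 63.2 in the other 3 tissue libraries, with Cd79a and Cd79b at 0 in all 4. There 9 markers of dendritic cells and macrophages summed to 252 FPKM and 5 of lung epithelium to 87.3, against 60.7 to 122 and 11.1 to 17.1 in the other 3. Those of innate lymphoid cells, at 140.4 FPKM, and of CD8 T cells, at 0, were lowest there. Their part in the differences was not tested.

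In circulating ex-Tcirc replicate 1, with the highest Tigit and Cd27 values, the markers of dendritic cells and macrophages summed to 1075 FPKM, of epithelium to 588 and of B cells to 257. In replicate 2 they summed to 308, 0 and 0 FPKM, and in circulating ex-TRM to 113, 28.9 and 37.2. Their part in the circulating values was not tested.

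Several of the 10 genes are high in regulatory T cells, so markers of those cells are given beside them. Foxp3, their lineage factor, read 8.3 and 6.27 FPKM in the tissue ex-Tcirc pair, 2.65 and 2.88 in the tissue ex-TRM pair, 5.52 in circulating ex-TRM and 0 in both circulating ex-Tcirc libraries. In tissue it thus stood higher in ex-Tcirc. Ikzf2 read 4.76 and 2.37 FPKM in the tissue ex-Tcirc pair, 1.17 and 2.2 in the tissue ex-TRM pair, 2.89 and 8.88 in the circulating ex-Tcirc pair and 3.95 in circulating ex-TRM. The other 3 markers of the list were not in the order of Foxp3. Il2ra overlapped between the tissue pairs, with 80.3 and 79.1 against 89.3 and 69.3 FPKM, and was called higher in tissue than in circulation (limma adjusted p = 0.033), where it read 15.6 and 15.4 in the ex-Tcirc pair and 50.5 in ex-TRM. Ikzf4 and Lrrc32 were higher in each tissue ex-TRM library than in each ex-Tcirc library, at or below 2.78 FPKM, and at 0 in circulation. The part of these cells in the values of the 10 genes was not tested.

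Among 5 follicular helper markers, Cxcr5 reached at most 3.63 FPKM, Bcl6 6.03, Tox2 6.26 and Sh2d1a 9.24. Il21 read 22.8 FPKM in circulating ex-Tcirc replicate 2, the library with the highest Tnfrsf4, and at most 7.73 elsewhere.

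Of 14 ligand genes of these receptors, 6 passed the filter on low values, and Cd40, Cd70, Tnfsf18 and Fgl1 were listed at 0 in all 7 libraries. The highest in tissue were Lgals3, a galectin reported to bind LAG-3, with 16.6 to 29.3 FPKM, Cd274, the gene of the PD-1 ligand PD-L1, with 10.5 to 24.2, and Pvr, the ligand of TIGIT, with 9.61 to 19.8. Circulating ex-TRM had 30.2, 24.6 and 17.3 FPKM of these. Replicate 1 of circulating ex-Tcirc, with the highest macrophage markers, had 77.9, 29.4 and 14.1 FPKM, and replicate 2 listed all 3 at 0. For location averaged over origins 1 of the 6 was called, where 12.5% of all genes were called higher in tissue. This was Pdcd1lg2, the gene of the other PD-1 ligand, with 3.77 to 9.42 FPKM in tissue and 0 in the 3 circulating libraries. Within ex-Tcirc cells, where 20.7% of all genes were called higher in tissue, Icosl was called as well, with 12.5 to 14.8 FPKM in the tissue pair and 2.05 and 0 in the circulating pair. None was called within ex-TRM cells or between origins in tissue.

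Of 16 other immunoglobulin-family receptors, 14 were tested. For location averaged over origins 4 of 14 were called higher in tissue, against 12.5% of all genes, and none lower, with a median log2 difference of 0.64 against 0.55 over all genes. The 4 were Cd96, with 10.2 to 14.2 FPKM in tissue, Cd226 with 7.62 to 22.4, Cd200r1 with 17.6 to 30.1 and Slamf1 with 11.7 to 21. Each was at 0 in the circulating ex-Tcirc pair and above 0 in circulating ex-TRM, with 13.3, 14.2, 17.5 and 17.2 FPKM. Cd226 is the activating counterpart of TIGIT. Within ex-Tcirc cells 5 of 14 were called, against 20.7% of all genes, with Vsir, the gene of the inhibitory protein VISTA, as the addition.

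The highest genes of this list in tissue were Cd2, an adhesion receptor, with 119 to 190.3 FPKM, Cd84 with 46.3 to 60.2 and Cd6 with 21.1 to 56.2. In the circulating ex-Tcirc pair Cd2 read 209 and 130 FPKM, Cd84 43.2 and 0, and Cd6 78.8 and 0.445. Circulating ex-TRM had 216, 39.9 and 82.8 FPKM of these, so Cd2 and Cd6 were higher there than in every tissue library.

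Among 16 other genes of the TNF receptor and TNF families, 15 were tested and 4 were called higher in tissue, against 12.5% of all genes, Tnf, Tnfsf11, Tnfsf10 and Fasl, with none lower and a median of 0.85. All 4 were at 0 in both circulating ex-Tcirc libraries. Fasl, the death ligand of activated T cells, had 19.2 to 24.8 FPKM in tissue against 21.6 in circulating ex-TRM, and Tnfsf11, which encodes RANK ligand, had 39.7 to 44.3 and 30.6. Tnf had 15 to 20.2 FPKM in tissue against 10.6 in circulating ex-TRM, and Tnfsf10 had 9.93 to 12.9 and 7.43. Within ex-Tcirc cells 7 of 15 were called, against 20.7% of all genes, with Tnfrsf25, Tnfrsf1a and Lta added.

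Ltb and Tnfsf8, 2 of the 3 highest of this list in tissue, were above 0 in all 7 libraries, with 60.8 to 80.2 and 22.9 to 52.9 FPKM in tissue. The circulating ex-Tcirc pair read 30.4 and 86.3 FPKM for Ltb and 12.9 and 85.3 for Tnfsf8, and circulating ex-TRM 63.6 and 57.9. As for Tnfrsf4, replicate 2 of circulating ex-Tcirc was the highest library for both.

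Downstream of the receptors all 25 adaptor and enzyme genes were tested, and 6 were called higher in tissue, against 12.5% of all genes, and none lower. These were Traf2, Traf3, Pik3ip1, Ptpn6, Relb and Map3k14, each at 0 in the circulating ex-Tcirc pair. In circulating ex-TRM, however, Relb and Map3k14 lay above every tissue library, by little for Map3k14. Traf3, Pik3ip1 and Ptpn6 lay within the range of tissue there, and Traf2 lay just below it. Traf6 joined the called genes within ex-Tcirc cells, 7 of 25 against 20.7% of all genes. The median log2 difference of the list was 0.53, near that of all genes. Ptpn6, the phosphatase SHP-1 that acts downstream of inhibitory receptors, read 22.4 and 40.2 FPKM in the tissue ex-Tcirc pair, 57.5 and 66 in the tissue ex-TRM pair and 55.6 in circulating ex-TRM.

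Between origins in tissue 23 of the 25 log2 differences were positive, against 47.0% of all genes tested, and none was called. Their median was 0.28, against -0.04 over all genes. Genes with a mean of at least 20 FPKM were 67.6% positive, with a median of 0.17. Rescaling to T cell identity genes moved the median of all genes to -0.27. The median of the list was not computed on that scale, so its 0.28 cannot be set against this value. Malt1, a protease that relays CD28 signals to NF-kB, read 73.3 and 113 FPKM in the tissue ex-Tcirc pair and 191 and 173 in the ex-TRM pair. Nfkb1 read 96.4 and 142 against 174 and 153 FPKM. Both were higher in each ex-TRM library than in each ex-Tcirc library, as 21.8% of all genes tested were.

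The gene most like each of the 10 in pattern was sought by Pearson r of log2(FPKM + 1) over the 7 libraries, among 1759 protein-coding genes with a mean of at least 20 FPKM. The closest to Cd40lg was Psen2 (r = 0.9998), at 24.5 to 39.6 FPKM in 5 libraries and 0 in both circulating ex-Tcirc libraries. Srrm1 was closest to Pdcd1 (r = 0.999), Slu7 to Tnfrsf18 (r = 0.998), Arpc4 to Cd27 and Gpx1 to Tigit (r = 0.993 each) and Zfand3 to Lag3 (r = 0.864). For genes without zeros it was Hnrnpk for Cd28 (r = 0.978), Prkd2 for Icos (r = 0.982), Ybx3 for Ctla4 (r = 0.985) and Rpl14 for Tnfrsf4 (r = 0.973). These values describe libraries that share depth and groups, and were not tested.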

How the data were processed

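RNA of sorted cells was sequenced as paired ends from strand-specific libraries, per the labels' protocols. The authors deposited FPKM, with 1 value for each gene of a library (per the file headers). Tools named in the submitters' processing notes, without their roles, include Trim Galore 0.6.7, HISAT2 2.2.1, SAMtools 1.15 and StringTie 3.0.1, with build mm10. Annotation, strand setting and filters were not stated. FPKM summed to 939087 to 1632198 in the 7 libraries used, with 10.2% to 14.1% of it in protein-coding names.

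Repeated gene names were summed. Group means of log2(FPKM + 1) were compared with limma 3.58.1 (R 4.3.3, empirical Bayes with a trend) over names at 1 FPKM or more in at least 2 of 7 libraries. P-values were adjusted by Benjamini and Hochberg over all names tested, and a gene was called at an adjusted p under 0.05. This log2 scale understates changes of low genes. The genes, lists and tests were chosen with earlier results of these data known. Named were the 10 genes, the called and the 3 highest tissue genes of each list, and the closest gene in pattern. One gene that this rule names is not reported here. Markers, overlapping genes and other examples were picked after their values were seen. In simulated data, log2 changes of 1, 2 and 4 were called in 1%, 4% and 42% of changed genes for location averaged, in 0%, 0% and 4% within ex-Tcirc, in 0%, 0% and 6% between origins in tissue, and in 0% at each size within ex-TRM and for the interaction. The simulated spread was averaged over groups and over genes of like level, and was the same in every group. It includes the wide spread of the circulating ex-Tcirc pair, and the real zeros of that pair were not reproduced. These rates therefore need not hold for the real data. Alternatives covered pseudocount, filters, scaling, library weights, the libraries fitted, the replicate number as a block and libraries left out.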

Additional observations from a re-analysis of the deposited data

Results flagged for a closer look

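The location difference of Cd40lg differed between the origins by -5.89 on the log2 scale, by the interaction test (limma adjusted p = 0.0427 over 7 libraries). It is given here because the same contrast differed between 2 groups. Cd40lg stood at 93.4 to 125 FPKM in the 3 ex-TRM libraries and at 61.6 and 91.7 in the tissue ex-Tcirc pair, with 0 in each circulating ex-Tcirc library. Over 17 alternatives its limma adjusted p ranged from 0.0024 to 0.998, and it was called in 9.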

How the results depend on the processing

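Counts of the 10 genes called were 1 for location averaged over origins, 1 in ex-Tcirc cells, 0 in ex-TRM cells, 0 between origins in tissue and 1 for the interaction. With genes above 0 in all 7 libraries, 4 of the 10 genes were tested and 0 were called in each comparison, as were 0 of all 5304 genes. Over all 8 libraries 0 of the 10 were called in each, as were 0 of all 28389 genes. With the replicate block 0 were called for location averaged and for the interaction, and the limma adjusted p of Cd40lg became 0.122 and 0.19. The labels do not say whether same-numbered libraries share anything besides the number. Correlations between their deviations were -0.11 to 0.02, which does not settle it. With the block the calls over all genes fell from 3618 to 0 for location averaged, from 5984 to 2786 in ex-Tcirc cells and from 2099 to 0 for the interaction. The interaction count was also 0 with a mean FPKM of at least 20, median-of-ratios scaling, TPM rescaling and rescaling to T cell identity genes, where the limma adjusted p of Cd40lg was 0.0509, 0.0589, 0.0745 and 0.0587. Over all genes the interaction called 4 of 2656 with that filter and 0 with each of these scalings. With only the groups compared, 3 genes were called in ex-TRM cells. Leaving out 1 library at a time gave 0 to 5 calls for location averaged, 1 to 7 in ex-Tcirc cells, 0 in ex-TRM cells, 0 between origins in tissue and 0 to 6 for the interaction. The counts of 5, 7 and 6 came without circulating ex-Tcirc replicate 1, which leaves 1 library in each circulating group, and 25.3%, 33.9% and 22.0% of all genes were called in those fits. Over all 8 libraries, the log2 differences for location averaged reversed to 0.45 for Tnfrsf4, 0.92 for Icos, 0.96 for Ctla4 and 1.20 for Cd28, and that of Tnfrsf4 in ex-TRM cells to 2.19, since the added library listed all 10 genes at 0. Calls over all genes ranged from 0 to 10141 for location averaged, 0 to 10836 in ex-Tcirc cells, 0 to 4246 in ex-TRM cells, 0 to 5716 between origins in tissue and 0 to 10543 for the interaction over the alternatives, and a pseudocount of 0.1 gave 6845, 9711, 990, 814 and 6770. The log2 differences between origins in tissue of Cd28, Icos, Ctla4 and Cd40lg passed in no alternative run. They kept their direction, but many alternatives could not change it. Filters, library weights, the block and the choice of circulating libraries leave the tissue means as they are. Nor can leaving out 1 tissue library reverse genes whose tissue pairs do not overlap. Only the rescalings could have reversed them. Depth is unknown, and a circulating ex-Tcirc level rests on 1 library where the other is at 0.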
